A study of Homo sapiens with 6 samples.

Results

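Claudins and the other genes of the tight junction and of apical polarity were compared between pLB and pLUM cells. The set comprised every gene on the array whose symbol was CLDN followed by a number, which gave 23 claudins, and 17 listed genes for other transmembrane proteins, the cytoplasmic plaque and the polarity complexes. Together these were 40 of the 25940 genes on the array, and 57 of its 34127 probes. Both cell lines descend from T47Dco, a luminal human breast cancer line, through tumors grown in ovariectomized NSG mice, which lack most of their own immune cells. pLUM cells came from a tumor of a mouse given estradiol (E) and were sorted as CLD3+ CD49f-. pLB cells came from a tumor of a mouse given E plus progesterone and were sorted as CLD3- CD49f+. For the arrays, pLUM cells (n = 3) had received 1 nM E for 72 h and pLB cells (n = 3) were kept under E withdrawal (EWD), so that line and hormone cannot be told apart. Cells of both lines were fixed, stained for CK5 and sorted before RNA extraction, and which of the CK5 fractions went onto the arrays is not given in the sources used here. Each line is a single derivation, so that differences between pLB and pLUM are differences between those lines.

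Tight junctions seal neighboring epithelial cells to each other near their apical surface. Claudins form the paracellular strands, which are joined by the MARVEL proteins occludin, tricellulin and MARVELD3 and by the immunoglobulin-like junctional adhesion molecules. On the cytoplasmic side, ZO scaffolds and cingulins couple the strands to actin, and the Crumbs and Par complexes, opposed by the lateral Lgl proteins, fix the border between the apical and the lateral membrane. In the breast, CLDN3, CLDN4 and CLDN7 are claudins of luminal epithelium, and a breast cancer subtype is named for low claudin levels. CLD3, the protein of CLDN3, was the antigen by which the lines were sorted, so that its transcript is given as a description.

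The arrays measured each transcript with probes of 60 bases. Some promoter sequences (RefSeq, GRCh38.p14, from 250 bases before the start) are given first, 5′ to 3′ in lower case. They are those of CLDN3 and CLDN4, which lie side by side, and of CLDN7 and CRB3, which moved in opposite directions. The CLDN7 and CRB3 windows shown were also those of the set with the most copies of the motif marked. Capitals mark E-boxes, here the letters CACCTG or the same site read on the opposite strand, CAGGTG, a motif known to be bound by repressors of the Snail and ZEB families.
CLDN3 promoter, chr7:73770241-73770520, minus strand: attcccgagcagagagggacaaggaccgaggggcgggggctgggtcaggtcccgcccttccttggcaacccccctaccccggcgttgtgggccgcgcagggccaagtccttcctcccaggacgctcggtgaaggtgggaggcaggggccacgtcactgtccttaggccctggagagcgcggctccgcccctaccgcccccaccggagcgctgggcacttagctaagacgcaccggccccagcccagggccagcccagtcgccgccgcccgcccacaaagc
CLDN4 promoter, chr7:73830746-73831025, plus strand: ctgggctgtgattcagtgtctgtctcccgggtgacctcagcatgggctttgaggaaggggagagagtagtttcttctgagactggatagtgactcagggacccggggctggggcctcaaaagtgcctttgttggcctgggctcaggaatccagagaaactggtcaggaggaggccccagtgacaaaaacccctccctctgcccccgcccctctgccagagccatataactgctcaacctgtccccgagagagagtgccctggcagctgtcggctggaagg
CLDN7 promoter, chr17:7262449-7262728, minus strand: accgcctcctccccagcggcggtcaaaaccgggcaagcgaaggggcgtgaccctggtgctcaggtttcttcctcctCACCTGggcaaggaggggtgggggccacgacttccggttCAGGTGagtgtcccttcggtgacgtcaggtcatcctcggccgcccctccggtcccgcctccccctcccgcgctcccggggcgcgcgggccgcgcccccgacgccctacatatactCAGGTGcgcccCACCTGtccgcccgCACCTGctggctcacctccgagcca
CRB3 promoter, chr19:6464021-6464300, plus strand: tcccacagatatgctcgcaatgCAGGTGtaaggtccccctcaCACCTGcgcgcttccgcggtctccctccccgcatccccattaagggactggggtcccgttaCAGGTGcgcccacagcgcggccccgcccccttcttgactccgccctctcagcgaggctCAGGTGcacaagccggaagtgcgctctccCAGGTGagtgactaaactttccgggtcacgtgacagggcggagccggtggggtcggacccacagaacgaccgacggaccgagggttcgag
In full windows of 300 bases, which run to 50 bases after the start, the CLDN7 and CRB3 promoters shown each held 5 E-boxes, a number reached by 0.094% of the 35116 promoter windows in the table, whereas 20.6% held at least 1. These were the highest counts among the 41 windows of the set. The 0.094% is a share of single windows and not of the highest in a set. The CLDN3 window held 1, just beyond the stretch printed, and the CLDN4 window held none. CLDN7 has another listed start, whose window held none. The first 30 bases of the probes of PARD6A and PARD6B, related genes that are compared below, are also shown, on hg19, the build of the array files, because the probes of such genes must differ for their signals to be read apart.
PARD6A probe, chr16:67696162-67696191, plus strand: tcaatggcattgaagtagccgggaagacct
PARD6B probe, chr20:49369777-49369806, plus strand: gggtatctatcaatggtattttcaagtaga

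All values are log2 signals relative to the 75th percentile of their own array, so that 0 is the level of that percentile, and levels of different probes are not compared. A probe was tested if it was well above background on at least 3 of the 6 arrays, which 25 of the 40 genes and 35 of their 57 probes were. A gene was called if it differed at least 2-fold with an adjusted p under 0.05 in limma, fitted across all tested probes, and was represented by its tested probe with the highest mean. On the arrays as a whole, 21285 to 22775 probes were well above background, no gene probe was saturated, and r across probes was 0.972 to 0.991 within a line and 0.780 to 0.806 between lines. Only 3 arrays per line limit the precision, and the labels do not say whether the replicates were separate cultures, so that p-values measure the spread between sorts. All 3 pLUM arrays and pLB replicate 1 shared a slide, and pLB replicates 2 and 3 were on another.

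Of the 25 tested genes, 11 were lower in pLB, 2 were higher and 12 were not called. Over all 17670 tested genes, 23% were lower and 22.7% higher, or 45.7% in either direction. The median change was -0.56 for the 25 genes and 0.04 for all genes. Without CLDN3, the sort marker, 10 of 24 were lower and 2 higher, with a median of -0.54. For 20 of the 25, no array of one line fell within the range of the other line, against 69.1% of all genes. Decreases of at least 8-fold were found for 6 of them, CLDN3, CLDN7, CLDN11, CGNL1, TJP3 and PARD6B, against 4.07% of all genes, and increases of that size for 0, against 5.42%. Without CLDN3, 5 of 24 fell that far. With normexp background correction, the log2 changes of CLDN7 (-2.76), CGNL1 (-2.74), CLDN11 (-1.68) and TJP3 (-1.64) were short of 8-fold. The share of all genes at that size was not computed under normexp. Fewer cells that express a gene and less RNA of it per cell cannot be told apart in these bulk samples.

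With slide as a block, which leaves pLB replicate 1 to be compared with pLUM, 9 of the 25 genes were lower, 3 were higher and the median was -0.68. Scaling by spike-in controls moved the median of all genes to 0.29 and gave 9 lower and 5 higher members, and 60.1% of all calls were then increases in pLB, against 49.7%. Of the 13 called members, 10 kept their call under each of the 20 alternatives in which they were tested and 0 changed direction; CRB3, MPP5 and PARD6A lost the call under at least 1.

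**Figure D1:**
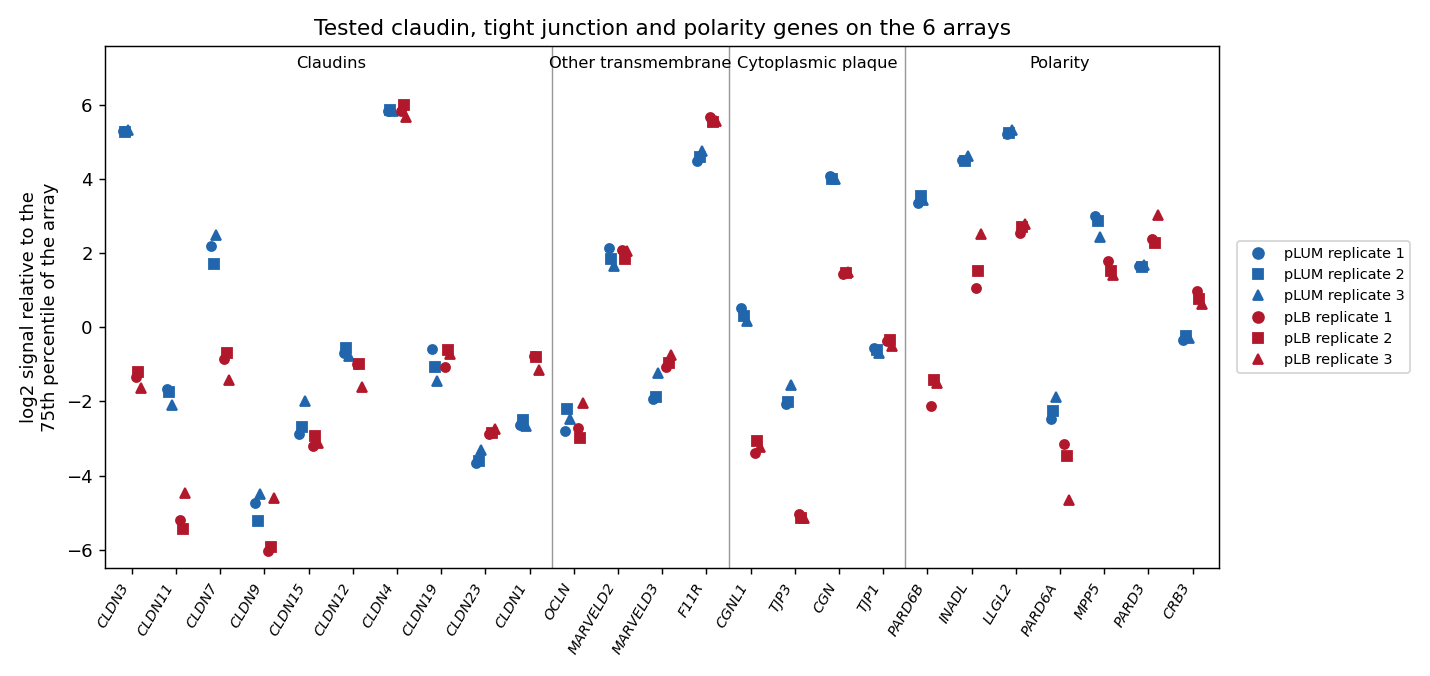
Log2 signal relative to the 75th percentile of the array (y axis) for the 25 tested genes (x axis, by role); each point is 1 array, blue for pLUM and red for pLB, with a symbol for each replicate. CLDN3 lies above 0 in pLUM and below 0 in pLB, whereas the CLDN4 points of both lines lie together, and 20 of the 25 genes have no overlap between lines.

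CLDN3, whose product defined the sorted populations, is described without a test. In order of replicate 1, 2 and 3, it read 5.29, 5.28 and 5.34 in pLUM and -1.34, -1.21 and -1.63 in pLB, and later values are in the same order. All 3 pLB arrays were therefore far below all 3 pLUM arrays, and the transcript was still well above background in pLB. It was 104-fold lower in pLB (log2 change -6.70 ± 0.17 SE). The probe lies at chr7:73183327-73183386 (hg19), on the minus strand.

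CLDN4, given per array because it is the neighbor of CLDN3, showed no such difference. Its signal was 5.85, 5.86 and 5.83 on the pLUM arrays and 5.85, 6.00 and 5.69 on the pLB arrays, which overlapped. The change was 0.00 with a 95% interval of -0.37 to 0.37 (adjusted p = 1, limma), so that, relative to CLDN4 on the same arrays, CLDN3 changed by -6.70 on the log2 scale. The CLDN4 probe lies at chr7:73246907-73246966 on the plus strand, 63520 bases from the CLDN3 probe, and the RefSeq table places 0 genes between the 2 genes. The longest run of bases that the probes have in common is 6. A further CLDN4 probe, to another transcript, was not well above background on any array.

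CLDN7, which like CLDN3 and CLDN4 is typical of simple epithelia, was lower in pLB. Its signal was 2.21, 1.70 and 2.50 in pLUM and -0.84, -0.68 and -1.41 in pLB. The lines were well separated, by 8.67-fold (log2 change -3.12 ± 0.28 SE, adjusted p = 7.1e-05, limma). The probe crosses an exon junction at chr17:7163822-7163986 on hg19.

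CLDN11, best known from myelin and from the testis, was also lower in pLB. It read -1.65, -1.74 and -2.09 in pLUM and -5.19, -5.45 and -4.46 in pLB, with no overlap. It was 9.22-fold lower in pLB (log2 change -3.21 ± 0.28 SE, adjusted p = 6.5e-05, limma). With normexp background correction its log2 change was -1.68, and it was still called.

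CLDN1, a barrier claudin that is prominent in skin, was the only called claudin that was higher in pLB (3.23-fold, adjusted p = 1.4e-04, limma). Its probe read -2.65 to -2.51 in pLUM and -1.15 to -0.77 in pLB, without overlap. Under normexp its log2 change was 1.00 in place of 1.69, with an adjusted p of 0.011 in limma.

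The probes to CLDN12, a claudin without the usual PDZ-binding tail, went opposite ways. The brighter of them read -0.68, -0.56 and -0.76 in pLUM and -1.0, -0.98 and -1.60 in pLB, a change of -0.53 that was not called (adjusted p = 0.065, limma). The dimmer read -5.75, -5.06 and -5.49 in pLUM and -3.82, -3.99 and -3.72 in pLB, and was called higher by 3.01-fold (adjusted p = 5.5e-04, limma). Neither probe overlapped between lines, although they carry the same transcript identifier, and the dimmer was well above background on only 1 of the 3 pLUM arrays. The direction of CLDN12 was therefore not settled, and the mean of its probes gave 0.53.

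The other tested claudins were not called. CLDN23 differed by 0.70 (95% interval 0.3 to 1.1), CLDN19 by 0.25 (-0.36 to 0.86), CLDN15 by -0.56 (-1.15 to 0.04) and CLDN9 by -0.71 (-1.65 to 0.24). Under normexp the change of CLDN23 was 0.02, and without pLUM replicate 3 those of CLDN15 and CLDN19 were -0.29 and 0.04. CLDN9 was well above background on only 1 pLB array, and without pLB replicate 3 it was called lower (-1.16). In all, 3 of the 10 tested claudins were lower and 1 higher, which is close to the 23% of all genes for the decreases.

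The remaining 13 claudins, CLDN2, CLDN5, CLDN6, CLDN8, CLDN10, CLDN14, CLDN16, CLDN17, CLDN18, CLDN20, CLDN22, CLDN24 and CLDN25, were not tested. Among them are the pore claudin CLDN2 of leaky epithelia, the endothelial CLDN5 and the renal CLDN16. Apart from CLDN25, they were not well above background on any array, and with JAM3, for which the same held, their 15 probes ranged from -8.01 to -5.46. CLDN25 was well above background on 2 pLUM arrays and on 0 pLB arrays, and read -4.14, -6.07 and -4.87 in pLUM and -6.56, -6.29 and -6.52 in pLB. Had the filter been left off, CLDN25 would have been called lower and CLDN16 higher. At these signals a difference was not detectable reliably, and no statement is made on whether these genes are expressed.

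Of the transmembrane proteins other than claudins, none of the 4 tested genes was called, against 45.7% of all genes, and their median change was 0.43. So few genes do not allow a comparison of shares. F11R, the junctional adhesion molecule JAM-A, came closest. Its brighter probe read 4.5, 4.61 and 4.77 in pLUM and 5.67, 5.54 and 5.57 in pLB, or 1.96-fold higher (adjusted p = 0.0013, limma), just under the fold required. A further F11R probe read 0.87, 0.26 and 1.02 in pLUM and 2.25, 2.30 and 2.69 in pLB, and at 3.25-fold it was called higher (adjusted p = 7.6e-04, limma). The arrays did not overlap on either probe, and both were higher in pLB. F11R was called higher under 6 of the 20 alternatives, among them spike-in scaling (1.22) and slide as a block (1.05).

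Occludin, tricellulin (MARVELD2) and MARVELD3 make up the MARVEL family, and no probe of theirs was called. OCLN changed by -0.10 (95% interval -0.77 to 0.56) on the brighter probe and by -0.65 on the other. MARVELD2 changed by 0.11 (-0.33 to 0.54) and 0.57. The probes of MARVELD3 went in opposite directions. One read -1.92, -1.88 and -1.23 in pLUM and -1.08, -0.95 and -0.75 in pLB, a change of 0.75. The other read -3.67, -3.40 and -2.99 in pLUM and -4.16, -3.76 and -3.76 in pLB, a change of -0.54. The arrays did not overlap on either, and they target different RefSeq transcripts. The mean of the probes gave 0.10, and MARVELD3 was called higher under 2 of the 20 alternatives, spike-in scaling (1.00) and no fold threshold. Of the other adhesion molecules, JAM2 was not tested, since only 1 of its 3 probes was well above background, on 2 pLB arrays.

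The plaque genes divided between ZO-1 and the rest. CGN, CGNL1 and TJP3 were lower in pLB and TJP1 was not called, so that 3 of 4 fell, with a median of -2.90. Among all genes 23% were lower, and 4 genes are few for a comparison of shares. CGNL1, or paracingulin, a plaque protein related to cingulin, read 0.52, 0.31 and 0.18 in pLUM and -3.39, -3.06 and -3.23 in pLB. It was 11.8-fold lower (adjusted p = 4.6e-06, limma), with tight replicates and no overlap. CGN, encoding cingulin itself, was 5.94-fold lower (adjusted p = 8.4e-06, limma).

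TJP3, or ZO-3, read -2.08, -2.02 and -1.56 in pLUM and -5.03, -5.16 and -5.16 in pLB. It was 9.39-fold lower (log2 change -3.23 ± 0.19 SE, adjusted p = 1e-05, limma), and was well above background on 2 of the 3 pLB arrays. Under normexp correction the log2 change was -1.64, and for CGNL1 it was -2.74. TJP1, which encodes the scaffold ZO-1 that claudins bind directly, differed by 0.21, with a 95% interval of -0.14 to 0.57 (adjusted p = 0.25, limma). Its arrays did not overlap, but the difference was small.

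**Figure D2:**
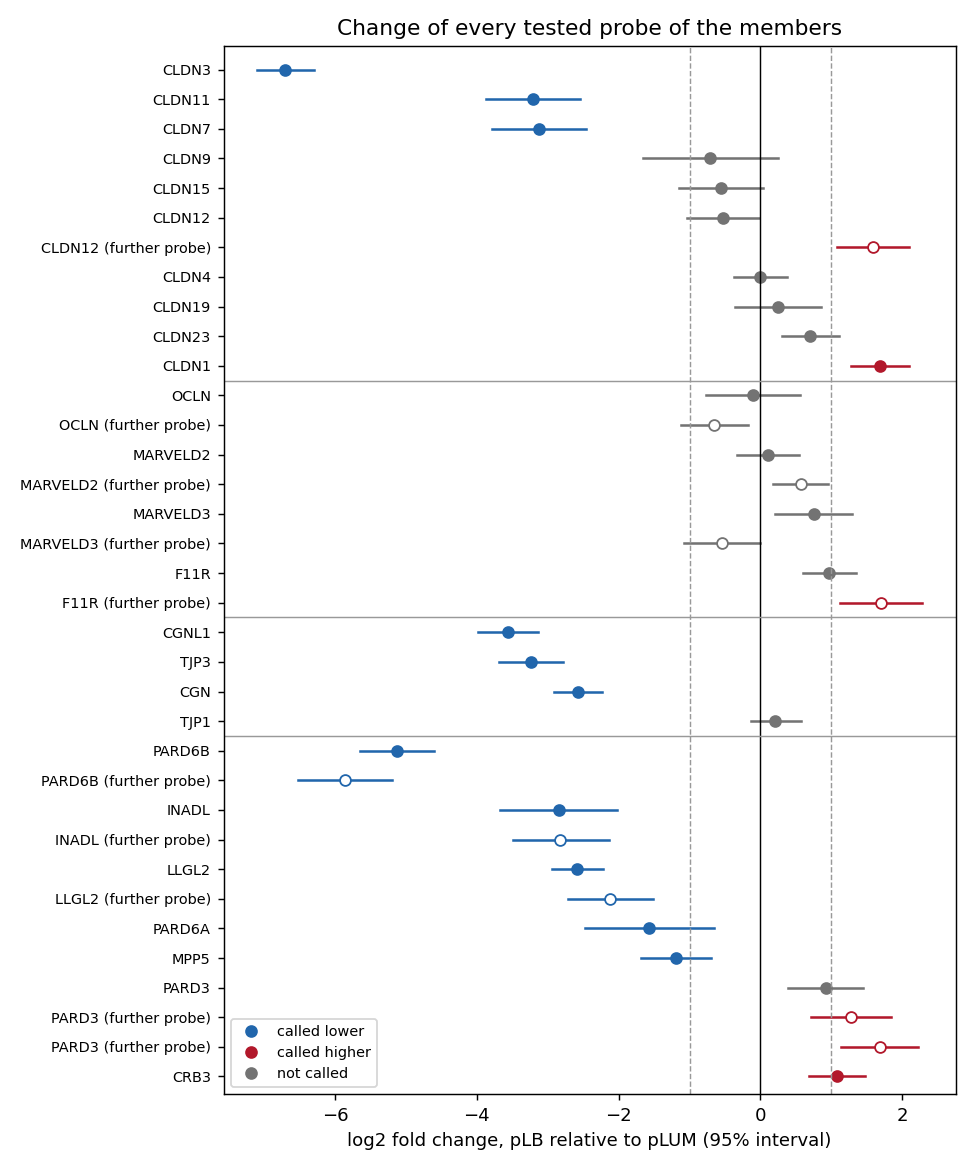
Log2 fold change of pLB relative to pLUM with its 95% interval (x axis) for each tested probe (y axis, in the order claudins, other transmembrane, plaque and polarity genes); filled points are the probes that represent a gene, open points its further probes, and dashed lines mark 2-fold. The largest decreases are those of CLDN3 (-6.70) and PARD6B (-5.12 and -5.86), and the probes of CLDN12 and MARVELD3 lie on both sides of 0.

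The polarity genes moved both ways. Of 7, all tested, 5 were lower in pLB, 1 was higher and 1 was not called, with a median of -1.57. Over all genes, 23% were lower and 22.7% higher. PARD6B, one of 3 PAR6 adaptors that join CDC42 to the atypical protein kinase C and PARD3, showed the second largest decrease among the 25. It read 3.36, 3.54 and 3.44 in pLUM and -2.11, -1.41 and -1.50 in pLB, with the lines far apart. The decrease was 34.8-fold (log2 change -5.12 ± 0.22 SE, adjusted p = 2.5e-06, limma). A further probe was 57.9-fold lower (adjusted p = 4.1e-06, limma), at 0.06, 0.09 and -0.29 in pLUM and -6.20, -5.30 and -6.21 in pLB, where it was well above background on 1 array.

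The 3 PAR6 genes did not move together. PARD6A, also lower in pLB (2.96-fold, adjusted p = 0.01, limma), read -2.48, -2.25 and -1.88 in pLUM and -3.16, -3.48 and -4.66 in pLB, of which 2 arrays were well above background. It was no longer called with slide as a block (-0.96), with spike-in scaling (-1.31) or with the methods' t-test after adjustment. PARD6G, from the list of further genes, went the other way. It read -4.28, -4.37 and -4.77 in pLUM and -0.62, -0.78 and -1.17 in pLB, and was 12.2-fold higher in pLB (adjusted p = 1.1e-05, limma). Relative to PARD6G on the same arrays, PARD6B changed by -8.74 on the log2 scale, and their probes share no run of over 7 bases. PARD6A and PARD6G were given per array after their values were seen.

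**Figure D3:**
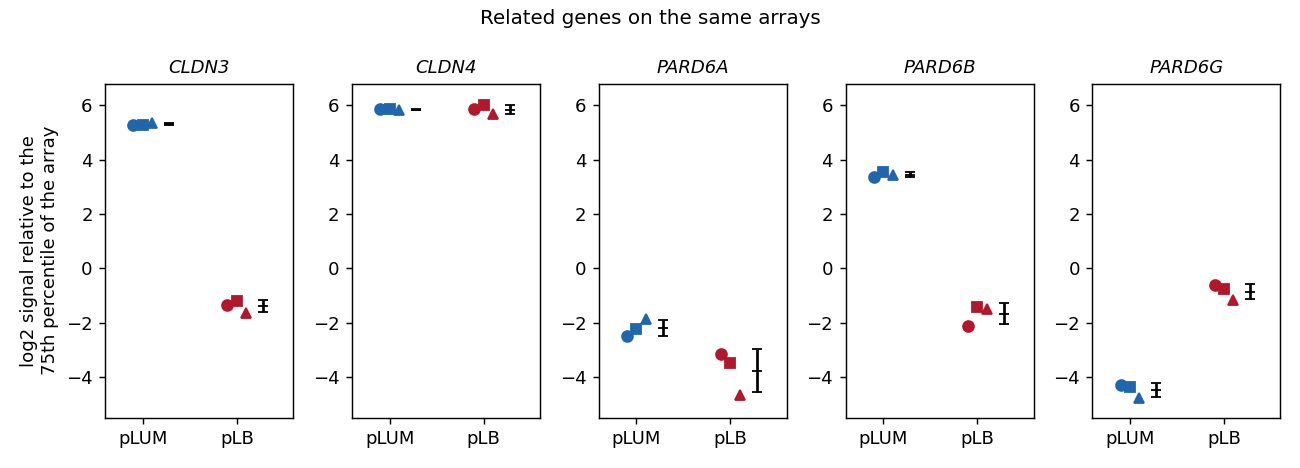
Log2 signal relative to the 75th percentile of the array (y axis) in pLUM and pLB (x axis) for CLDN3, CLDN4 and the 3 PAR6 genes; points are arrays, and black bars are the mean ± SD of 3 arrays. CLDN3 fell by 6.70 while the CLDN4 arrays of both lines overlap, and PARD6B fell by 5.12 while PARD6G rose by 3.61.

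Genes of the Crumbs complex were also split. CRB3, the apical Crumbs protein of epithelia, was 2.12-fold higher in pLB (adjusted p = 9.9e-04, limma), and fell just short of the required fold under normexp (log2 change 0.97) and without pLB replicate 1 (0.99). Its scaffold partners were lower. MPP5, or PALS1, was 2.29-fold lower (adjusted p = 0.002, limma), a call that was lost with spike-in scaling (-0.94) and with slide as a block (-0.98). INADL, now PATJ, was 7.17-fold lower (adjusted p = 3.4e-04, limma) on the probe that represents it and 7.05-fold lower on another.

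LLGL2, a lateral protein that restrains the apical kinase, was 5.97-fold lower (adjusted p = 1e-05, limma) and, on another probe, 4.35-fold lower. PARD3, the scaffold at the core of the Par complex, had the opposite tendency on 3 probes. The brightest read 1.66, 1.62 and 1.69 in pLUM and 2.40, 2.29 and 3.03 in pLB, which was 1.89-fold higher and not called (adjusted p = 0.009, limma). The second read -3.48, -3.14 and -2.79 in pLUM and -1.18, -1.57 and -1.64 in pLB, and was called higher at 3.19-fold. The third read -4.52, -5.30 and -5.05 in pLUM and -3.88, -3.70 and -3.47 in pLB, and was called higher at 2.42-fold. The lines did not overlap on any of the 3. PARD3 was called higher under 5 of the 20 alternatives, among them spike-in scaling (1.17) and the mean of its probes (1.29).

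At the probe level, 14 of the 35 tested probes were lower and 6 were higher; 45.6% of all probes were called. Of the 9 genes with more than 1 tested probe, 6 had the same call on each, and 0 had opposite calls, whereas over all genes the counts were 4286, 2587 and 85.

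A further list of 45 tight junction genes was read in the same fit, of which 44 had a probe and 38 were tested. In pLB, 15, or 39.5%, were higher and 5, or 13.2%, were lower, against 22.7% and 23% of all genes, and the median change was 0.50. The 8 called genes with the largest fitted changes are named; the order of those given as bounds is not settled. Higher were PVRL3 (30.1-fold), or nectin-3, which helps to seed junctions; CLMP (12.6-fold), an adhesion molecule related to the coxsackievirus receptor; PARD6G; CSDA (7.76-fold), a Y-box factor that binds ZO-1; LIN7A (at least 2.35-fold); and SYNPO (7.33-fold), which binds actin. Lower were MPP7 (at least 9.02-fold), a scaffold that binds DLG1, and IGSF5 (at least 1.75-fold), a junctional adhesion molecule. The bounds are given where no array of the dimmer line was well above background. They compare the brighter line with the lowest signal well above background on each array, or with the probe's own signal where higher. Some probes above that lowest signal were not well above background, so that the bounds are approximate. IGSF5, LIN7A and MPP7 passed the filter through the line in which they were higher. So did another of the 5 genes called lower, with a bound of at least 2.08-fold. The bound of IGSF5 does not reach the 2-fold of a call. The other 5 of the 8 were well above background on all arrays, with adjusted p of at most 7.4e-05 in limma on the probes that represent them. Further SYNPO probes were 2.43-fold higher, which was called, and 1.55-fold higher, which was not. The rank of SYNPO therefore rests on its brightest probe on average. Another gene called higher lies outside the 8 at 3-fold on the probe that represents it. A further probe of that gene, well above background on 1 pLUM array, was 29.5-fold higher. A further CSDA probe was 5.15-fold higher and called.

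Some genes of the further list gave probes of different direction. CDC42 changed by -0.04 on the probe that represents it and by 2.40 on another, which was called higher. VAPA changed by 0.73, which was not called, and by -2.31 on another probe, called lower, of which 2 pLB arrays were well above background. PVRL2 changed by -0.74 and 0.49 and ARHGEF18 by 1.03, called higher, and -0.06.

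**Figure D4:**
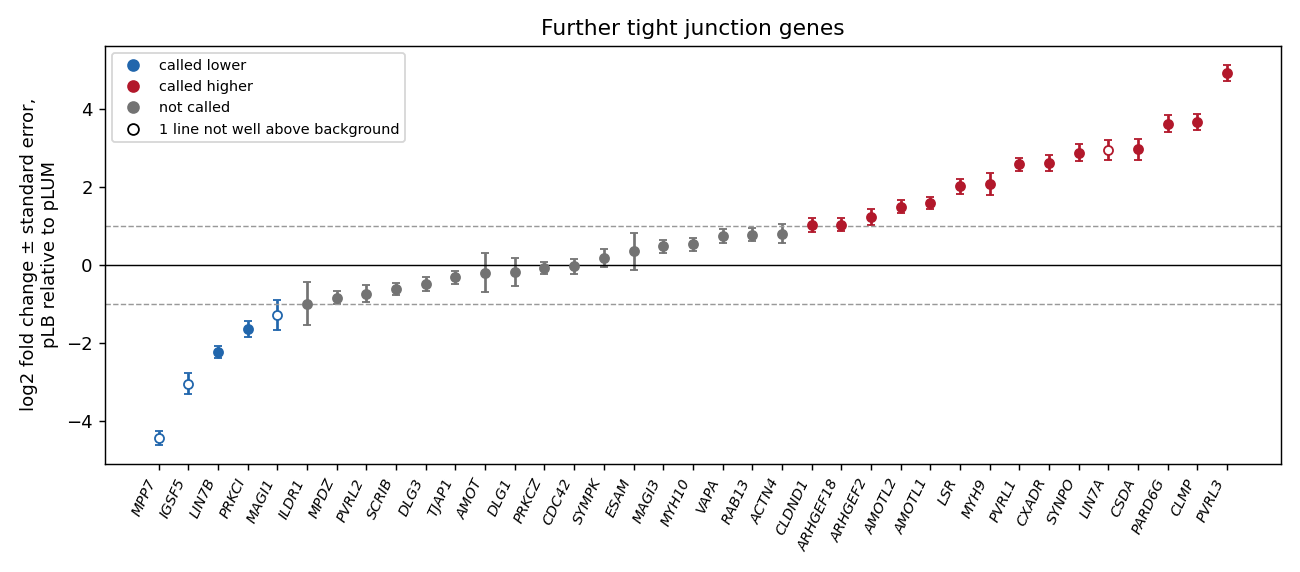
Log2 fold change of pLB relative to pLUM ± SE (y axis) for tested genes of the further list (x axis); colors mark the call, dashed lines 2-fold, and open points genes that were not well above background on any array of 1 line. Increases (15) outnumber decreases (5), and PVRL3 and MPP7 lie at the ends.

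The promoters were also counted across the set. RefSeq windows were matched for 28 of the 40 genes, in 41 windows, of which 15 windows, or 36.6%, held an E-box, against 20.6% of all windows. By call, 5 of 9 genes that were lower, 1 of 2 that were higher and 2 of 6 that were tested and not called had a window with one. So had 5 of the 11 that were not tested. These are counts of genes, whereas the 20.6% is of windows, and no share of all genes was computed. The genes with the most E-boxes were CLDN7, lower in pLB, and CRB3, higher in pLB. Of the lower genes, CLDN3, CLDN7, INADL, PARD6A and TJP3 had an E-box in a listed window, and CLDN11, CGN, CGNL1 and MPP5 had none. Whether these sites have a part in the changes was not tested. A match is only a run of letters in the window.

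Markers of the cell types were read beside these values. In pLB, 8 of 10 luminal markers were lower and 1 was higher, and their summed signal was 120 to 126 times the 75th percentile, against 436 to 464 in pLUM; PGR was not well above background in pLB. All 8 basal markers were higher in pLB, with a summed signal of 143 to 175 against 4.4 to 5.98, and KRT5, KRT14, TP63 and SNAI2 were not well above background in pLUM. Over all genes, 22.7% were higher and 23% lower. CD49f, the product of the basal marker ITGA6, was an antigen of the sort that made the lines. CK5, the product of KRT5, was the antigen of the sort before RNA extraction. Both markers are therefore given only as a description. Endothelial markers summed to 0.114 to 0.144 in pLUM and 0.131 to 0.301 in pLB, fibroblast markers to 0.767 to 0.966 and 0.786 to 1.14, and leukocyte markers to 0.487 to 0.629 and 0.463 to 0.595. Of these, 1 of 3 tested endothelial, 1 of 2 tested fibroblast and 1 of 5 tested leukocyte markers were higher in pLB, and PECAM1, KDR, TEK, COL3A1, DCN, LUM and PDGFRB were not well above background in either line. The part of the luminal and basal states in the junction genes was not tested.

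**Figure D5:**
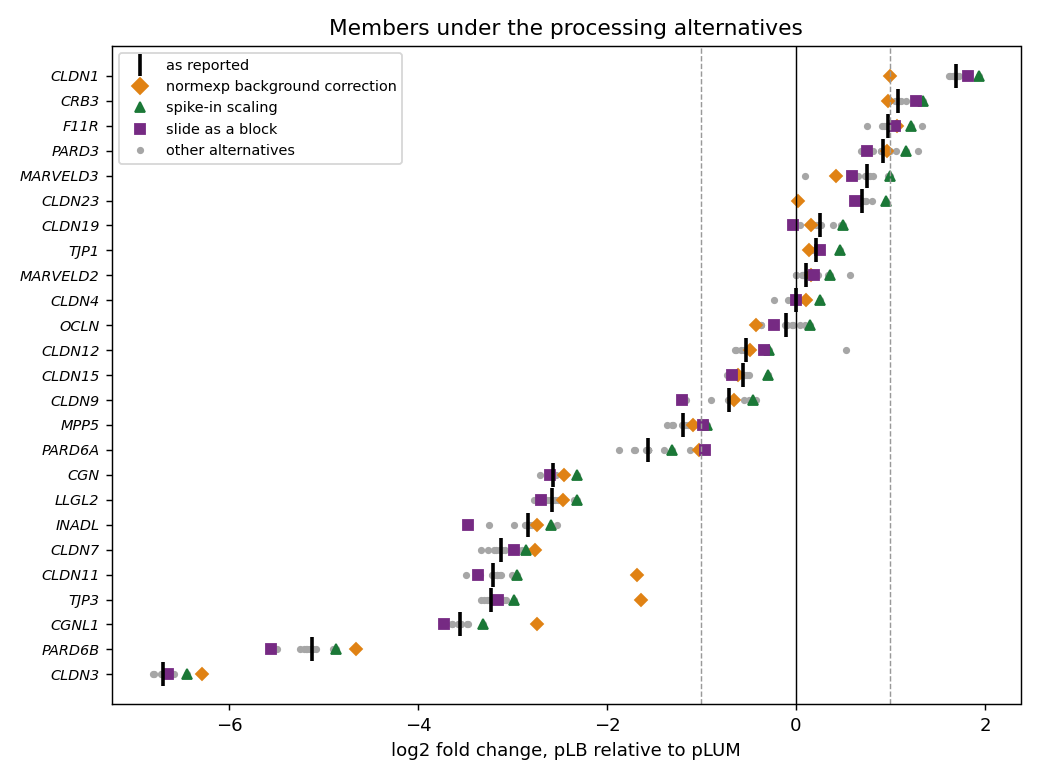
Log2 fold change of pLB relative to pLUM (x axis) of each tested member (y axis) as reported (black bar) and under the processing alternatives (points). CLDN3, PARD6B and CGNL1 stay far from 0 throughout, whereas CLDN11 and TJP3 shrink to -1.68 and -1.64 under normexp correction and CLDN4 stays between -0.23 and 0.25.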

How the data were processed

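Total RNA of sorted pLUM and pLB cells was hybridized to Agilent arrays with 1 dye. The authors deposited Agilent Feature Extraction 10.10.1.1 output, in which each spot has a linear intensity that had been background-corrected within its array and not normalized between arrays. The submitters' processing notes also name Partek. Probe names and positions are those of the files (hg19). Promoter sequences are from RefSeq (GRCh38.p14).

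Deposited intensities were divided by the 75th percentile of their array and put on the log2 scale. Control spots and spots flagged as outliers (296 to 387 per array) were left out. The comparison of pLB with pLUM used lmFit and eBayes (limma 3.58.1, R 4.3.3), with Benjamini-Hochberg adjustment over 23105 probes. The fit was checked on simulated data. Differences of dim probes depend on the background correction.

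The members and lists were chosen with earlier results of these data known. Values per array are given for CLDN3, for called members that changed at least 8-fold and for members whose probes disagreed in call or direction; of the further list, the 8 largest called changes and genes whose probes disagreed in direction are named. One gene of that list is counted but not reported here. The alternatives were normexp background correction, quantile, median and spike-in scaling, other filters, a signal floor, the mean of the probes, no fold threshold, the methods' t-test, slide and replicate blocks, and each array left out. Taking RefSeq transcript probes first was added after the data were seen.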

Additional observations from a re-analysis of the deposited data

How the results depend on the processing

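The number of members lower in pLB was 9 to 12 under the alternatives, against 11, and 11 to 12 with an array left out. The number higher, 2 as reported, was 5 with spike-in scaling, 4 with the mean of the probes and 6 with no fold threshold, and 2 to 3 with an array left out. The median of -0.56 became -0.30 with spike-in scaling, -0.14 with no filter, -0.32 with probes well above background on all 6 arrays, and -0.68 with slide as a block or within slide 1, and was -0.67 to -0.50 with an array left out. Of the further list, the 5 lower became 3 under normexp, 2 with the filter on all arrays and 8 with no fold threshold (4 to 5 with an array left out). The 15 higher became 12 under normexp, 17 with no filter and 20 with no fold threshold (13 to 15 with an array left out). CLDN4 changed sign under normexp (0.11), spike-in scaling (0.25), the slide block (0.00) and without pLUM replicate 1 (0.00), pLUM replicate 2 (0.01) or pLB replicate 3 (0.07), within -0.08 to 0.07 with an array left out. MARVELD2 did so with quantile scaling (0.00) and without pLUM replicate 3 (0.00 to 0.23 with an array left out), OCLN with spike-in scaling (0.15) and without pLUM replicate 2 (0.04) or pLB replicate 2 (-0.37 to 0.10), CLDN12 with the mean of the probes (0.53) and CLDN19 with the slide block (-0.03); none of these was called in the report. The cause was not tested.

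Deviations of same-numbered arrays correlated at -0.265, -0.095 and -0.217, so that no positive link between them was seen. Differently numbered arrays were not compared, and whether the sorts were paired is not settled. With the replicate block, 11 members were lower and 2 higher, with a median of -0.56, and 6 and 15 of the further list.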
